A study of Homo sapiens with 8 samples.

Results

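The respiratory chain of the inner mitochondrial membrane passes electrons from NADH and succinate to oxygen through complexes I to IV, and ATP synthase (complex V) uses the resulting proton gradient to make ATP. Most of its subunits are encoded in the nucleus, made on cytosolic ribosomes and imported, while a small set of core subunits is encoded by mitochondrial DNA, so that a complete complex needs transcripts from both genomes. In colorectal cancer cells oxidative phosphorylation runs beside glycolysis.

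The genes described here were chosen by symbol alone, as all rows beginning with NDUFA, NDUFB, NDUFC, NDUFS or NDUFV and a digit, SDHA to SDHD, UQCR, COX4 to COX8, or ATP5. This gave 90 of 20030 rows. Complex I had 39 rows, complex II 4, complex III 9, complex IV 17 and complex V 21. The rule itself used no measured value, although the members were chosen with earlier results of these data known. NDUFA4 was counted with complex I by its name, although it is now placed in complex IV, and the rule leaves out NDUFAB1 and cytochrome c1 (CYC1). The readthrough rows NDUFC2-KCTD14 and ATP5MF-PTCD1 and the retrocopy UQCRHL share sequence with NDUFC2, ATP5MF and UQCRH, so their values are uncertain. The 13 mitochondrially encoded subunits were not analysed here.

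The measurements are RNA-seq of HCT-116, a human colorectal cancer cell line, transfected with siRNA, in 8 libraries. Of these, 2 received a control siRNA (siNC), 3 an siRNA against HHEX, a homeobox transcription factor (siHHEX), 2 siRNAs against YAP1 together with the TAZ gene WWTR1 (siYAP/TAZ), and 1 siRNAs against TEAD1 to TEAD4 (siTEAD1/2/3/4). The study's methods give 3 different siHHEX siRNAs and 2 siYAP/TAZ pairs, numbered as the libraries are, and 1 control siRNA. The study says of its experiments in general that they were repeated independently, but neither the labels nor its RNA-seq methods say that these libraries came from separate cultures, so p-values measure the spread between these libraries, which in siNC may be technical.

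The values are FPKM, fragments per kilobase of transcript scaled to the library total, which allows levels of different genes to be compared per length. The FPKM of all rows summed to 331663 to 383423 per library. Read counts were not used here, so the depth is unknown. HHEX, the siRNA target, was at 8.60 and 9.06 FPKM in siNC and at 3.25, 3.54 and 1.85 in siHHEX. YAP1 was at 20.2 and 19.7 in siNC, at 6.90 and 8.39 in siYAP/TAZ, and at 5.77, 17.4 and 6.93 in siHHEX. The YAP1 level therefore set siHHEX 2 apart from siHHEX 1 and siHHEX 3. WWTR1 was at 6.80 and 6.72 in siNC and 2.64 and 2.58 in siYAP/TAZ. In the siTEAD1/2/3/4 library, TEAD1 (9.02) and TEAD4 (5.56) were below both siNC libraries (18.3 and 19.0, 20.3 and 21.3), TEAD2 was at 2.73 against 4.10 and 3.47, and TEAD3, at 9.08, was above both (7.36 and 6.99). The 5 epithelial markers summed to 3371 and 3513 FPKM in siNC, 3114, 3439 and 3654 in siHHEX, 2027 and 1973 in siYAP/TAZ and 2712 in siTEAD1/2/3/4, with the keratin gene KRT8 the most abundant (1591 and 1707 in siNC, 1593, 1722 and 1757 in siHHEX, 898 and 897 in siYAP/TAZ). In limma's test, described below, EPCAM (log2 fold change -0.38) and KRT18 (-0.29) were lower in siHHEX than in siNC, and KRT8 (-0.88) and KRT18 (-1.22) in siYAP/TAZ, so the siYAP/TAZ libraries stood apart in these markers. CDH1 and KRT19 passed in neither comparison. With GC content and transcript length corrected for, KRT8 (-0.34) and KRT18 (-0.68) were the lower ones in siHHEX. The part of these markers in the results was not tested. PTPRC, CD3E and PECAM1, which mark leukocytes, T cells and endothelium, stayed at or below 0.101 FPKM, COL1A2 of fibroblasts at or below 0.273, COL1A1 at 0.647 to 2.04 and CD68 at 3.52 to 7.33. These 6 genes summed to 4.63 and 4.69 FPKM in siNC, 4.38, 4.66 and 6.45 in siHHEX, 8.52 and 7.31 in siYAP/TAZ and 6.58 in siTEAD1/2/3/4, and the 2 that were tested, CD68 and COL1A1, were not called in siHHEX or siYAP/TAZ.

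Of the 90 genes, 81 reached at least 1 FPKM in at least 2 libraries and were tested: 38 of complex I, 4 of complex II, 9 of complex III, 11 of complex IV and 19 of complex V. The 9 others were COX4I2, COX6A2, COX6B2, COX7A1, COX7B2, COX8C, NDUFA4L2, ATP5MGL and ATP5S. The first 7 of these are tissue-restricted or paralogous forms of ubiquitous subunits. COX6A2, COX7A1 and COX7B2 were listed at 0 in all 8 libraries, COX4I2 was above 0 only in siHHEX 3 (0.162 FPKM) and COX8C only in the siYAP/TAZ libraries (0.291 and 0.152). COX6B2 was at 0.234 to 1.56 and NDUFA4L2 at 0.0820 to 0.436. The ubiquitous partners were far above them, with siNC values of 479 and 479 for COX6A1, 349 and 340 for COX6B1, 124 and 131 for COX7A2 and 406 and 429 for COX8A.

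The median siNC level of the tested genes was 241 FPKM in complex IV and 136 in complex V, against 59.0 in complex I, 54.5 in complex II and 73.6 in complex III, and 7.34 over all 10677 tested genes. The highest were COX7C, a small complex IV subunit, at 717 and 672 in siNC, ATP5F1B, the catalytic beta subunit of ATP synthase, at 638 and 649, and ATP5F1E, its epsilon subunit, at 633 and 604. The highest in complex I was NDUFB9 (382 and 373), in complex II the iron-sulfur subunit SDHB (82.8 and 82.9) and in complex III the hinge protein UQCRH (166 and 164). The lowest tested was NDUFA5 of complex I, at 5.27 and 4.65. The 90 genes together made up 3.08% of the FPKM sum in both siNC libraries, 3.57, 3.48 and 3.59% in siHHEX, 3.26 and 3.32% in siYAP/TAZ and 3.15% in siTEAD1/2/3/4, so the siHHEX libraries did not overlap with the others.

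Many respiratory chain transcripts were higher after HHEX knockdown, with the calls in complexes I, III, IV and V. In limma's test on log2(FPKM + 1), with Benjamini-Hochberg adjustment over all tested genes, 38 of the 81 were higher in siHHEX than in siNC at an adjusted p under 0.05, where 16.0% of all tested genes were higher, and 0 were lower, where 16.9% were lower. At an unadjusted p under 0.05, 46 were higher, against 23.0% of all tested genes, and 1 was lower, against 24.2%. The median log2 fold change was 0.31, against -0.01 over all tested genes. All 3 siHHEX libraries were above both siNC libraries for 57 of the 81, where this held for 33.1% of all tested genes, and below both for 8, where the background was 33.8%. Past the threshold the study used, 2-fold with an unadjusted p under 0.05, there were 0 of the 81, and few of all tested genes (0.702% higher and 0.927% lower). The calls rested on having both siNC libraries, since with either siNC library left out the same test called 0 of the 81, with only 10 (without siNC 1) and 15 (without siNC 2) of all 10677 tested genes higher, and 34 were then higher at an unadjusted p under 0.05, where 1367 of all 10677 tested genes were without siNC 1 and 1498 without siNC 2.

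**Figure D1:**
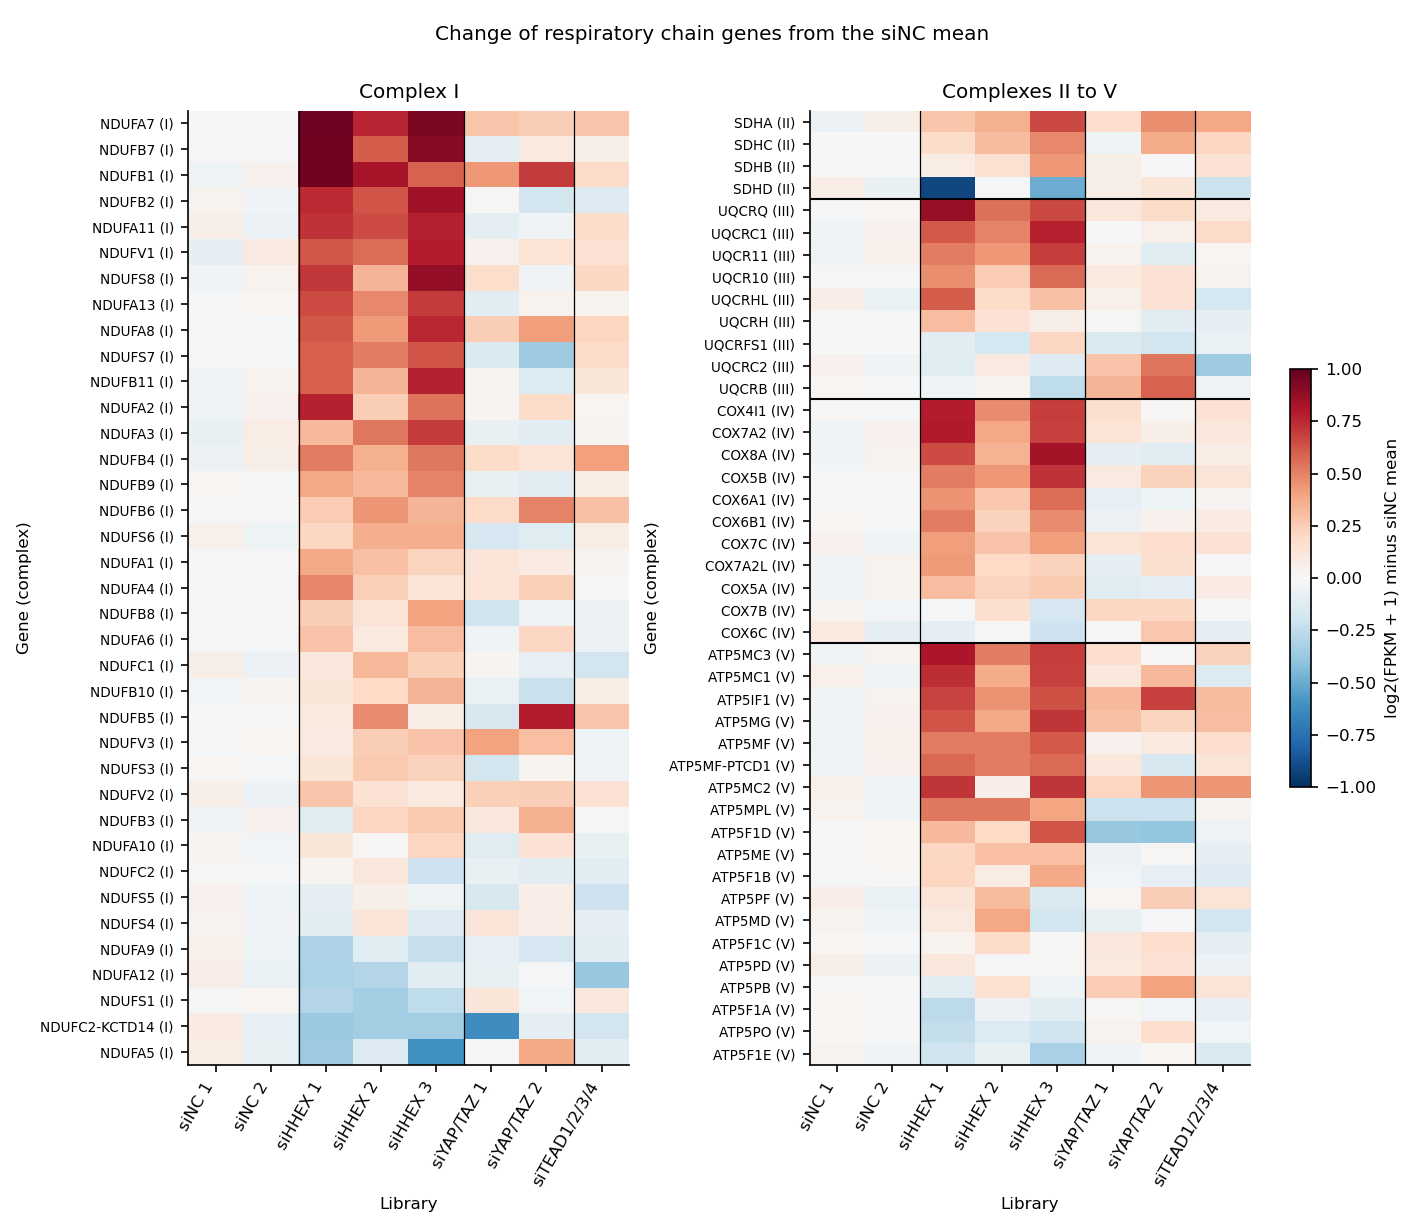
Heat map of log2(FPKM + 1) minus the siNC mean for the tested genes, 1 left out (rows, with the complex in brackets, ordered within each complex by the siHHEX change) in 8 libraries (columns); red is higher and blue lower. The 3 siHHEX columns are red for most genes of each complex, and the siYAP/TAZ and siTEAD1/2/3/4 columns are paler for most genes.

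By complex, the higher genes were 18 of 38 in complex I (median log2 fold change 0.29), 0 of 4 in complex II (0.27), 4 of 9 in complex III (0.36), 7 of 11 in complex IV (0.41) and 9 of 19 in complex V (0.27). The order of these medians changed with the corrections given below. In complex I the largest change was that of NDUFA7, a supernumerary subunit. It was at 60.6 and 60.3 FPKM in siNC, 119, 103 and 117 in siHHEX, 73.5 and 71.7 in siYAP/TAZ and 73.3 in siTEAD1/2/3/4. The siHHEX libraries lay above all others, with a log2 fold change of 0.89 ± 0.11 (SE; limma, adjusted p = 0.0037). Core subunits, which carry the flavin, the iron-sulfur clusters and the quinone site, were among the higher genes, with NDUFV1 at a log2 fold change of 0.65, NDUFS8 at 0.64 and NDUFS7 at 0.58. The core subunit NDUFS1, which holds iron-sulfur clusters of the electron input arm, went the other way without passing the test, at 20.6 and 21.2 FPKM in siNC and 16.9, 16.3 and 17.4 in siHHEX (log2 fold change -0.30, adjusted p = 0.070). NDUFA5, at 3.63, 4.46 and 2.92 in siHHEX, had the lowest change of complex I (-0.36, adjusted p = 0.13). Both signs turned with the correction for GC content and transcript length given below, to 0.08 for NDUFS1 and 0.17 for NDUFA5. With the correction by coding sequence NDUFS1 was at 0.08 and NDUFA5 remained below 0, at -0.17.

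Complex II, succinate dehydrogenase, also belongs to the TCA cycle and has no mitochondrially encoded subunit. Its flavoprotein gene SDHA was at 14.7 and 16.0 FPKM in siNC and 18.9, 19.9 and 24.9 in siHHEX (log2 fold change 0.43, adjusted p = 0.056). Its membrane anchor gene SDHD was uneven, at 80.1 and 72.5 in siNC and 40.0, 75.4 and 53.9 in siHHEX (-0.47, adjusted p = 0.11). For SDHD the siHHEX 2 value lay between those of the siNC libraries. For the other 3 genes of complex II, SDHA, SDHB and SDHC, all siHHEX libraries were above both siNC libraries, as for 33.1% of all tested genes. None of these 3 passed the test.

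In complex III, which passes electrons from ubiquinol to cytochrome c, the higher genes were UQCRQ, UQCRC1, UQCR11 and UQCR10. UQCRQ, which encodes a small subunit, was at 73.9 and 76.2 FPKM in siNC and 138, 111 and 119 in siHHEX, against 81.4 and 85.6 in siYAP/TAZ and 79.8 in siTEAD1/2/3/4 (siHHEX log2 fold change 0.70 ± 0.12, adjusted p = 0.0067). UQCRC1, a core protein of the matrix side, was at 101 and 107 in siNC and 160, 147 and 179 in siHHEX (0.63). The Rieske iron-sulfur protein gene UQCRFS1 was at 149 and 149 in siNC and 137, 132 and 172 in siHHEX, groups that overlapped (-0.03, adjusted p = 0.87). CYC1, the cytochrome c1 gene outside the name rule, was higher (152 and 159 in siNC, 244, 227 and 270 in siHHEX, log2 fold change 0.66, adjusted p = 0.0056). With the correction for GC content and transcript length given below, CYC1 was not called. CYCS, which encodes cytochrome c itself, was at 55.9 and 52.2 in siNC and 31.0, 48.9 and 16.9 in siHHEX (-0.85, adjusted p = 0.073), again with siHHEX 2 nearest to siNC.

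In complex IV, cytochrome c oxidase, the higher genes were COX4I1, COX7A2, COX8A, COX5B, COX6A1, COX6B1 and COX7C. COX4I1, the regulatory subunit expressed in most tissues, was at 123.5 and 122.0 FPKM in siNC and 212, 171 and 199 in siHHEX (log2 fold change 0.65 ± 0.12, adjusted p = 0.0075). COX7C, the most abundant of the 90 genes, was at 927, 847 and 926 in siHHEX (0.37). COX7B, an accessory subunit, was at 351 and 338 in siNC and 343, 385 and 307 in siHHEX (-0.01), so its groups overlapped. COX6C was at 109 and 95.5 in siNC and 96.0, 103 and 88.2 in siHHEX (-0.10).

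In complex V the largest change was that of ATP5MC3. It is 1 of 3 genes, with ATP5MC1 and ATP5MC2, that encode the same mature c subunit of the proton-driven rotor with different import sequences. ATP5MC3 was at 37.7 and 39.6 FPKM in siNC, 68.6, 55.5 and 63.0 in siHHEX, 43.5 and 38.9 in siYAP/TAZ and 45.5 in siTEAD1/2/3/4 (siHHEX log2 fold change 0.67 ± 0.12, adjusted p = 0.0081). ATP5MC1, the most abundant of them, was at 138 and 129 in siNC and 224, 174 and 215 in siHHEX (0.60, adjusted p = 0.013). ATP5MC2 was at 21.5 and 20.0 in siNC and 34.6, 21.8 and 34.7 in siHHEX (0.50, adjusted p = 0.075). The siHHEX libraries were thus above both siNC libraries for all 3 rotor genes, and 2 of the 3 passed the test. After either correction given below, ATP5MC3 alone of the 3 passed it. The catalytic subunits did not pass it, with log2 fold changes of 0.23 for ATP5F1B (748, 679 and 839 FPKM in siHHEX) and -0.15 for ATP5F1A (223 and 218 in siNC, 183, 211 and 204 in siHHEX). ATP5IF1, the inhibitor of ATP hydrolysis by the synthase, was higher (17.8 and 18.6 in siNC, 29.7, 25.2 and 28.8 in siHHEX, 0.59). ATP5F1E had the lowest change of the complex (537, 588 and 493 FPKM in siHHEX, -0.20, adjusted p = 0.13). With the correction for GC content and transcript length its limma change was 0.24 (adjusted p = 0.077). With the correction by coding sequence, also given below, it was -0.27 (adjusted p = 0.083).

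**Figure D2:**
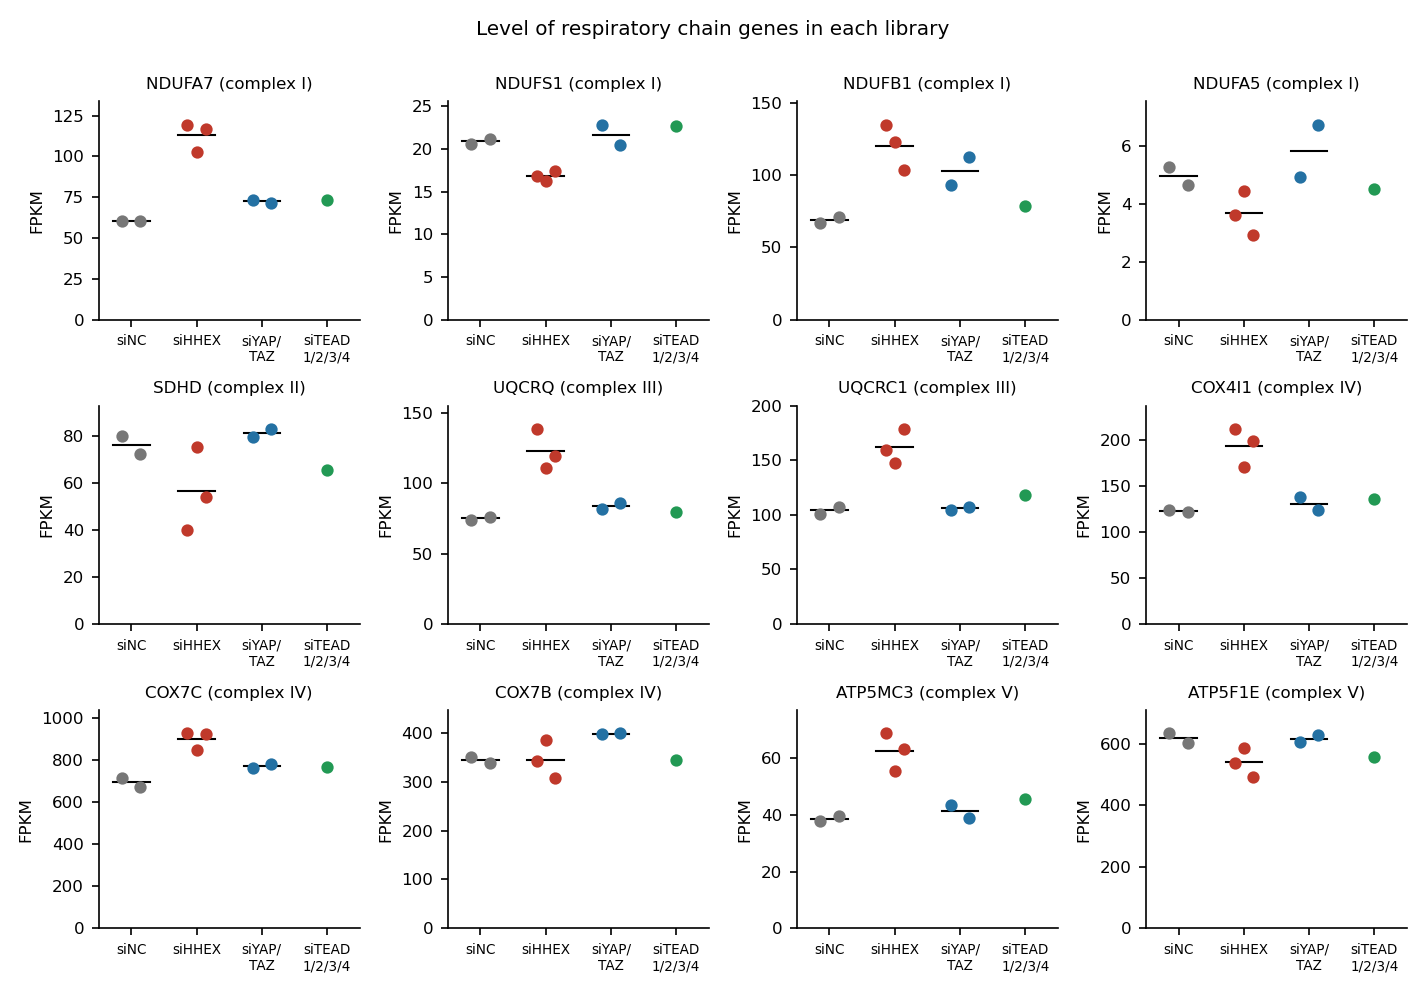
FPKM (y axis, linear, from 0) of selected respiratory chain genes in each library; points are libraries, lines are the means of groups with more than 1 library. NDUFA7, UQCRQ, UQCRC1, COX4I1 and ATP5MC3 are highest in siHHEX, NDUFS1 is at 16.3 to 17.4 FPKM in siHHEX against 20.6 and 21.2 in siNC, and SDHD spreads from 40.0 to 75.4 in siHHEX.

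The siHHEX changes followed the base composition and length of the transcripts. Over all tested genes, the change of a library from the siNC mean had a Spearman correlation with the GC content of the transcript of 0.68, 0.60 and 0.76 in siHHEX 1, 2 and 3, and over the 81 respiratory chain genes of 0.50, 0.44 and 0.67 (a description across genes, which share these libraries). The 81 transcripts were short, with a median of 758 bases against 3256 over all tested genes, and had a median GC content of 47.2% against 49.1%. Below 45% GC, 5 of 27 respiratory chain genes were higher in siHHEX, with a median log2 fold change of -0.002, whereas 39 of all 3898 tested genes of that class were higher, with a median of -0.37. At 60% GC or more, 8 of 8 were higher, with a median of 0.63, against 42.3% of all tested genes with a median of 0.38. Within each of the 5 classes of GC content the median of the respiratory chain genes was above that of all tested genes. Among transcripts shorter than 1000 bases, 30 of 48 respiratory chain genes (62.5%) and 41.3% of all tested genes were higher.

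**Figure D3:**
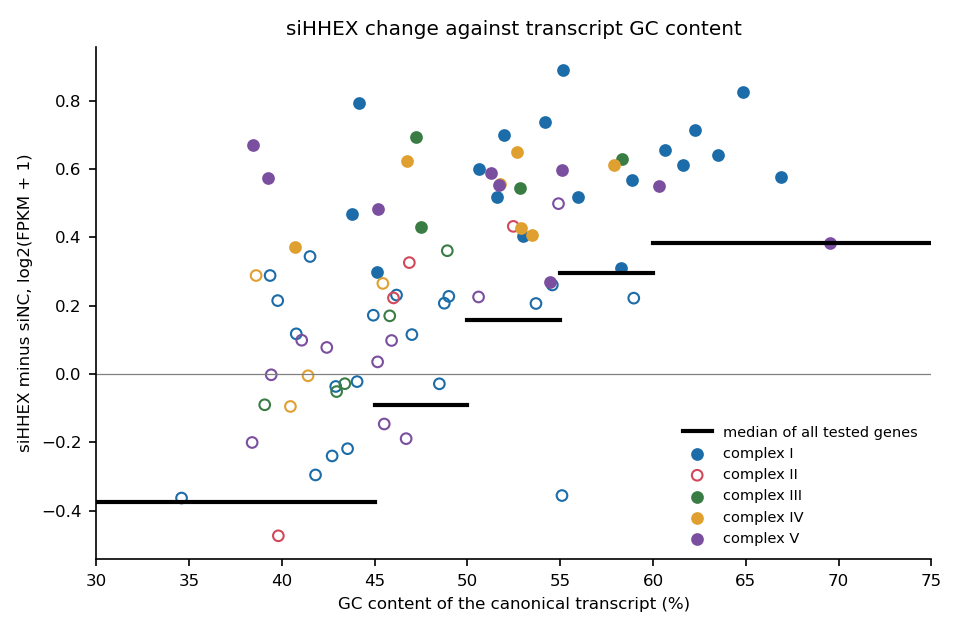
siHHEX minus siNC change on log2(FPKM + 1) (y axis) against the GC content of the canonical transcript in percent (x axis) for the 81 tested genes, coloured by complex; filled points passed the test and black lines are medians of all tested genes in 5 classes of GC content. Both rise with GC content, and most points lie above the line of their class.

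When the dependence on GC content and transcript length, as fitted over all genes, was subtracted from each library, 14 of the 81 were higher in siHHEX, where 3.55% of all tested genes were, and 1, the readthrough row NDUFC2-KCTD14, was lower, where 3.19% were. The median log2 fold change fell to 0.17. Among the 81 the relation was not removed but turned, with Spearman correlations with GC content of -0.34, -0.43 and -0.42 in siHHEX 1, 2 and 3 and with length of 0.29, 0.33 and 0.51 after the correction. The canonical transcripts of several members carry long 3′ UTRs, and in an alternative chosen after seeing the data the GC content and length of the coding sequence were used instead. This called 17 higher, where 5.22% of all tested genes were higher, and again only NDUFC2-KCTD14 lower, where 4.83% were lower, with a median of 0.22. The siHHEX change of the 81 then had a correlation of -0.18 with the GC content and 0.19 with the length of the coding sequence, against -0.42 and 0.43 for the transcript after the transcript correction. Among the 8 genes higher in all 3 fits were NDUFA7, NDUFB1 and NDUFB4 of complex I, UQCRQ of complex III, and ATP5MC3, ATP5MG and ATP5MPL of complex V, the last a small subunit also called ATP5MJ. For ATP5MC3 the log2 fold changes were 0.67 as deposited, 1.07 with the transcript correction and 0.69 with the coding correction. For NDUFA7 they were 0.89, 0.40 and 0.41, and for NDUFS7, with a GC content of 66.9%, 0.58, -0.03 and 0.17. COX4I1 was called with the coding correction (0.49, adjusted p = 0.029) and not with the transcript correction (0.30, adjusted p = 0.12). Of the 38 calls, 29 were not made after the transcript correction, among them COX5B, COX6A1, COX6B1, COX8A, NDUFS7 and NDUFS8. Split by complex I to V, the medians after it were 0.14, 0.25, 0.26, 0.29 and 0.13, with 6, 0, 1, 3 and 4 genes higher. With the coding correction they were 0.19, 0.29, 0.11, 0.10 and 0.27, with 8, 0, 2, 2 and 5 genes higher. Complex IV thus had the highest median as deposited and the lowest with the coding correction.

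**Figure D4:**
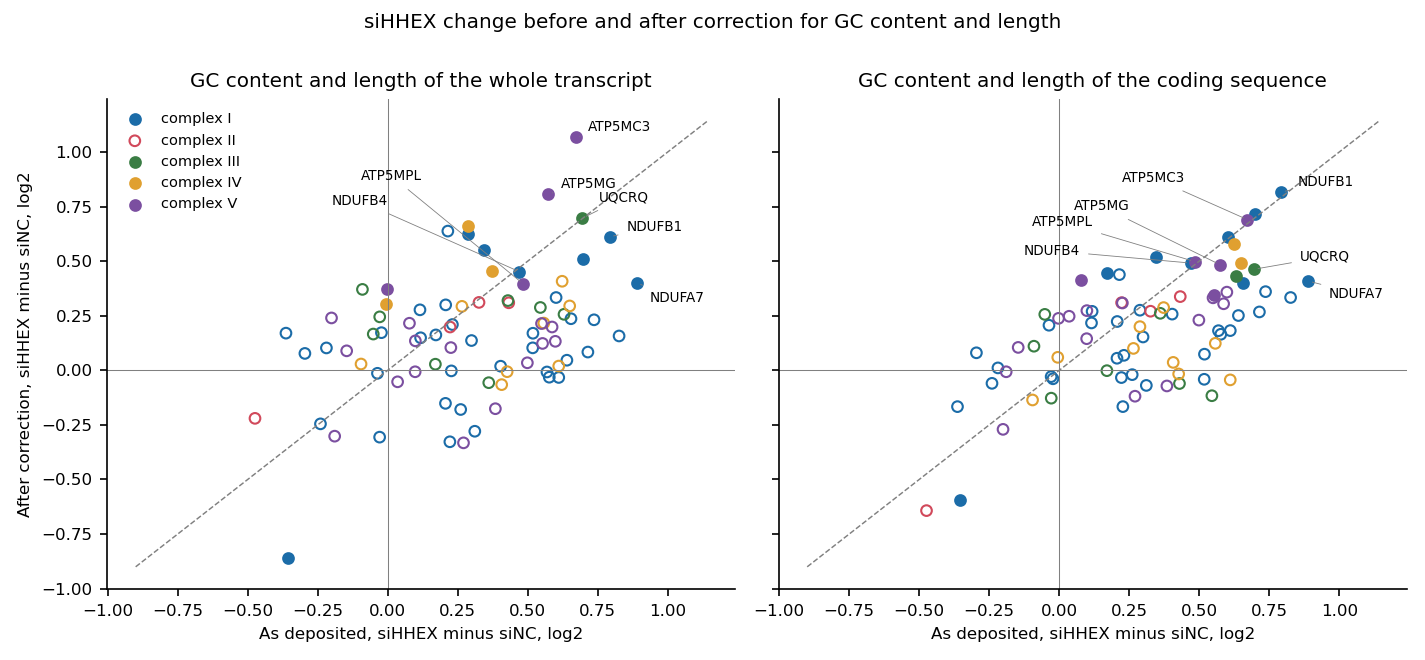
siHHEX minus siNC log2 change of the 81 tested genes as deposited (x axis) and after correction (y axis) for GC content and length of the whole transcript (left) or of the coding sequence (right); filled points passed the test after correction and the dashed line marks no difference. The named genes passed in all 3 fits, and most other points lie below the dashed line on the right of zero.

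After YAP1 and WWTR1 knockdown, 2 of the 81 genes were higher than in siNC, where 6.15% of all tested genes were, and 0 were lower, where 2.13% were. At an unadjusted p under 0.05, 9 were higher and 1 was lower in the same limma fit, shares below those of all tested genes (19.4% and 7.85%). The median log2 fold change of 0.08 equalled that of all tested genes. The siYAP/TAZ and siHHEX comparisons share the siNC libraries. Among the 2 higher genes was NDUFB1, a supernumerary subunit of complex I, at 66.8 and 70.7 FPKM in siNC, 93.1 and 112 in siYAP/TAZ (log2 fold change 0.57 ± 0.15, adjusted p = 0.0498) and 135, 122.7 and 104 in siHHEX. NDUFB1 was not called in siYAP/TAZ after the correction of the transcript (0.37, adjusted p = 0.10) or of the coding sequence (0.35, adjusted p = 0.084). ATP5F1D, the delta subunit of ATP synthase, had the lowest change in siYAP/TAZ, at 123.1 and 121.9 against 158 and 162 in siNC (-0.38, adjusted p = 0.12). After the correction for GC content and transcript length, 1 gene was higher, where 5.29% of all tested genes were, and 1 was lower, where 6.14% were. The lower gene was ATP5F1D (-0.53, adjusted p = 0.013), also called with the coding correction (-0.49, adjusted p = 0.021). With either siNC library or siYAP/TAZ 2 left out, the 2 calls made before correction were lost. Most calls among all tested genes were lost as well, so this loss was not particular to the respiratory chain genes.

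The single siTEAD1/2/3/4 library was compared by size only. In it 4 genes were above the siNC mean by more than 0.32 on the log2 scale, where 17.8% of all tested genes were. Below the mean by as much were 2, where 8.95% of all tested genes were. Among the 4 were ATP5MC2 (log2 change 0.44), NDUFB4 (0.41) and SDHA (0.38), and the 2 were NDUFA12 (-0.38) and UQCRC2 (-0.36). The median was 0.03, against 0.06 over all tested genes.

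**Figure D5:**
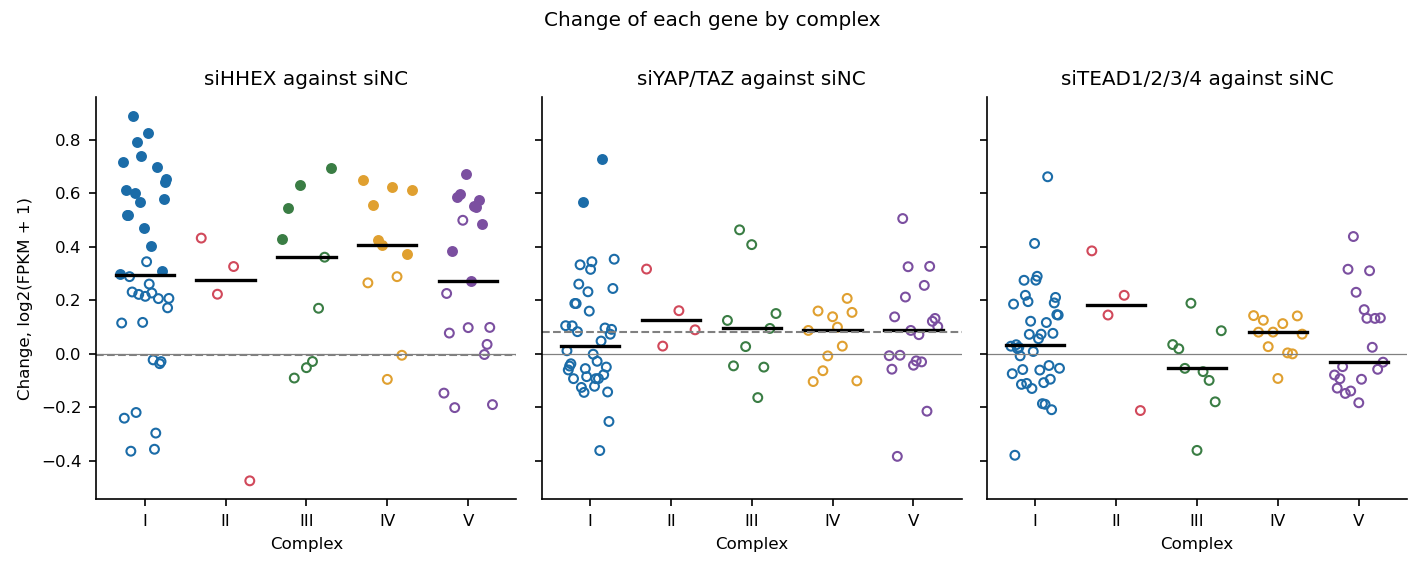
Change from siNC on log2(FPKM + 1) (y axis) of each tested gene by complex (x axis) in siHHEX, siYAP/TAZ and siTEAD1/2/3/4; filled points passed limma's test, black lines are complex medians and the dashed line the median of all tested genes (drawn for the groups with a test). The siHHEX medians lie between 0.27 and 0.41, the siYAP/TAZ medians between 0.03 and 0.13.

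Compared directly, with no siNC library in the contrast, 33 of the 81 were higher in siHHEX than in siYAP/TAZ, where 13.5% of all tested genes were, and 6 were lower, where 25.9% were. The median log2 difference was 0.25, against -0.13 over all tested genes. Scaling the libraries to a common median changed the split to 43 higher and 2 lower, and that of all tested genes to 19.1% and 17.2%. With GC content and transcript length corrected for, 14 were higher, where 5.52% of all tested genes were, and 0 were lower, where 3.35% were (35 higher and 2 lower at an unadjusted p under 0.05, against 15.5% and 12.4% of all tested genes). The 6 lower genes before correction were NDUFA5, NDUFS1, UQCRB, UQCRC2, ATP5PO and ATP5PB. After it, the difference was above 0 for NDUFA5 (0.07), NDUFS1 (0.21), UQCRB (0.05) and ATP5PB (0.11). With the coding correction it was above 0 for NDUFS1 (0.13) but below 0 for NDUFA5 (-0.24), UQCRB (-0.23) and ATP5PB (-0.04). As deposited, UQCRB, the ubiquinone-binding protein of complex III, was at 12.0, 12.7 and 10.3 FPKM in siHHEX, 16.0 and 19.2 in siYAP/TAZ and 12.6 and 12.3 in siNC. ATP5PO, which joins the head and the stalk of ATP synthase, was at 193, 208 and 198 in siHHEX and 233 and 256 in siYAP/TAZ. Higher in siHHEX than in both siNC and siYAP/TAZ were 29 genes, where 7.16% of all tested genes were, among them NDUFA7, UQCRQ, UQCRC1, COX4I1 and ATP5MC3. With both contrasts corrected there were 7, where the background was 1.05%: ATP5MC3, ATP5MG, ATP5MPL, COX7A2L, COX7C, NDUFA4 and UQCRQ. Without siYAP/TAZ 2, 13 were higher, against 3.82% of all tested genes, and 0 lower, against 5.79%, before correction (33 and 2 at an unadjusted p under 0.05), and with either siNC library left out, which changes the shared estimate of the spread, 27 were higher, against 9.44% (without siNC 1) and 9.43% (without siNC 2) of all tested genes, and 2 lower, against 18.5%.

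The factors that build the complexes are read against the 16.0% of all tested genes that were higher and the 16.9% that were lower in siHHEX than in siNC. Of the complex I assembly factors, 6 of 16 tested were higher and 1 was lower. DMAC1, needed for the distal membrane arm, was at 5.53 and 5.42 FPKM in siNC and 11.7, 11.02 and 13.0 in siHHEX (log2 fold change 0.995, adjusted p = 0.0037), and NDUFAF4 was at 18.4 and 16.6 in siNC and 12.3, 10.6 and 12.4 in siHHEX (-0.53, adjusted p = 0.017). For complex II 2 of 4 were higher, with SDHAF4 at 4.82 and 3.48 in siNC, 13.7, 8.39 and 9.61 in siHHEX (1.15) and 8.41 and 9.47 in siYAP/TAZ (0.96, adjusted p = 0.033). For complex III 2 of 6 were higher, UQCC2 (0.81) and UQCC3 (0.88). For complex IV 6 of 24 were higher and 2 lower, with SCO2, a copper chaperone, at 0.85 and LRPPRC, which stabilizes mitochondrial mRNAs, at -0.71 (43.5 and 42.4 FPKM in siNC, 23.5, 32.4 and 22.9 in siHHEX). The other lower gene was COA7 (-0.35). For complex V 2 of 5 were higher, of which ATP5IF1, the inhibitor, is 1 of the 81 genes and already counted above. The other, FMC1, an assembly factor of ATP synthase, was at 2.42 and 2.88 in siNC, 11.2, 7.04 and 9.63 in siHHEX (1.48 ± 0.18, adjusted p = 0.0037) and 5.17 and 5.83 in siYAP/TAZ (0.83, adjusted p = 0.036). DMAC1, NDUFAF2, SDHAF4, UQCC2 and FMC1 were also higher in siHHEX after both corrections. Of the 3 lower factors, 0 were called after the transcript correction, and COA7 alone was called after the coding correction (-0.42).

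The regulators of mitochondrial biogenesis, the transcription factors and coactivators that act on these promoters or on mitochondrial DNA, had calls in both directions in siHHEX. Of 11 tested, 2 were higher, a share near the 16.0% of all tested genes, and 4 were lower, where the background was 16.9%. The higher genes were ESRRA, an orphan nuclear receptor (16.8 and 17.3 FPKM in siNC, 22.6, 24.6 and 35.0 in siHHEX, log2 fold change 0.63), and POLRMT, the mitochondrial RNA polymerase (0.36). The lower genes were GABPA (-0.61) and GABPB1 (-0.60), the subunits of an ETS-family factor, TFB2M (-0.53), a mitochondrial transcription factor, and YY1 (-0.42). NRF1 was at 11.1 and 9.68 in siNC and 9.25, 9.58 and 9.19 in siHHEX (-0.14, adjusted p = 0.41), and TFAM, which packages mitochondrial DNA, at 17.3 and 18.1 in siNC and 9.20, 15.2 and 5.58 in siHHEX (-0.87, adjusted p = 0.054). PPARGC1A was listed at 0 in 7 libraries. None of the 11 was called after the transcript correction, and at the coding correction YY1 and PPARGC1B were lower and TFB1M higher.

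Among other mitochondrial lists, 1 of 13 TCA cycle enzymes was higher and 1 was lower in siHHEX, with a median log2 fold change of 0.13, both shares below the background of 16.0% and 16.9%. The lower gene was DLD, the dihydrolipoamide dehydrogenase of the oxoacid complexes, at 26.6 and 26.8 FPKM in siNC and 15.8, 19.0 and 17.6 in siHHEX (log2 fold change -0.59). After the transcript correction 1 was higher and 0 were lower, and DLD was at -0.14 (adjusted p = 0.49). The background after this correction, for these enzymes and the lists that follow, was 3.55% of all tested genes higher and 3.19% lower. Of the import machinery, 6 of 23 were higher, with TOMM22 at 0.72, and 5 lower, with TOMM20 at -0.80. After the transcript correction 2 were higher, TOMM22 among them, and 0 lower, with a median of 0.007. The coding correction instead gave 0 higher and 2 lower with a median of -0.09, where 5.22% of all tested genes were higher and 4.83% lower. The mitochondrial ribosomal protein genes, the other large nuclear-encoded set of this organelle, had 26 of 78 higher and 4 lower with a median of 0.21, and 7 higher and 0 lower with a median of 0.03 after the transcript correction. The cytosolic ribosomal protein genes had 37 of 91 higher and 10 lower with a median of 0.20, and 14 higher and 2 lower with a median of -0.02 after it. The respiratory chain medians were 0.31 and 0.17. With the coding correction the medians were 0.11 for the mitochondrial and 0.08 for the cytosolic ribosomal protein genes. Those of the respiratory chain genes and of all tested genes were then 0.22 and 0.02. This correction called 3 mitochondrial ribosomal protein genes higher and 0 lower, and 10 cytosolic ones higher and 3 lower. Between siHHEX and siYAP/TAZ, 13.5% of all tested genes were higher and 25.9% lower, and 5.52% and 3.35% after the transcript correction. In this comparison 34 of 78 mitochondrial ribosomal protein genes were higher and 1 lower with a median of 0.27. Of the 81 respiratory chain genes, 33 were higher and 6 lower with a median of 0.25. After the transcript correction 24 mitochondrial ribosomal protein genes were higher with a median of 0.30, against 14 respiratory chain genes with a median of 0.21. The cytosolic ribosomal protein genes had 37 of 91 higher and 12 lower with a median of 0.18, and 21 higher and 2 lower with a median of 0.13 after it. Differences between these lists were not tested.

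Promoters of respiratory chain genes are known for sites of NRF1, GABP (an ETS factor) and YY1, and windows of members with high and low siHHEX changes are shown with the letters searched. RefSeq promoter windows of 250 bases before to 50 bases after the start (GRCh38.p14) were matched for 70 of the 90 genes and searched on both strands for GCGCA followed after 1 base of any kind by GCGC (NRF1), CCGGAAG (ETS), AAGATGGC (YY1) and GGGCGG (SP1). These words do not contain each other, and matches may overlap. The 100 bases before the start follow for the genes with the largest siHHEX change in complexes I and III, for UQCRC1 as a window with the NRF1 word, and for SDHD as the member with the lowest siHHEX change, with matched words in capitals.
NDUFA7 promoter, chr19:8321376-8321475, minus strand: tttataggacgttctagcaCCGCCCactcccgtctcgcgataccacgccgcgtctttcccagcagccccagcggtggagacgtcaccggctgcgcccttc
UQCRQ promoter, chr5:132866542-132866641, plus strand: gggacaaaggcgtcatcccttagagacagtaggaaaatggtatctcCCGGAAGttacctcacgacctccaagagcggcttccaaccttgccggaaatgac
UQCRC1 promoter, chr3:48609647-48609746, minus strand: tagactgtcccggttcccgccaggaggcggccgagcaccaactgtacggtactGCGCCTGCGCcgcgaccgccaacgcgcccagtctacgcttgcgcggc
SDHD promoter, chr11:112086773-112086872, plus strand: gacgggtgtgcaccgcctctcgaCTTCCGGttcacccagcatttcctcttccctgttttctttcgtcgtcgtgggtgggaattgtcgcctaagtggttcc

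In the 100 bases shown, NDUFA7 has the SP1 word on the opposite strand, UQCRQ the ETS word, UQCRC1 the NRF1 word on the opposite strand and SDHD the ETS word on the opposite strand. The rest of the windows searched held the YY1 word for NDUFA7, the YY1 and SP1 words for UQCRC1 and the NRF1 word for SDHD. Not every window held a word, and those of NDUFA5, NDUFB1 and NDUFV1, not printed here, held none of these words. In the 70 windows the NRF1 word was found in 24.3%, the ETS word in 28.6%, the YY1 word in 15.7% and the SP1 word in 61.4%. In the windows of all 8713 tested genes that were matched they were found in 12.5%, 21.2%, 5.96% and 73.1%, and in all 27305 windows of the table in 6.28%, 10.7%, 3.03% and 44.6%. The NRF1 word stood in 9 of 32 windows of genes higher in siHHEX and in 7 of 34 of the other tested members, the ETS word in 12 and 8, the YY1 word in 4 and 7, and the SP1 word in 19 and 23. By complex, among tested members, 4 of 7 windows of complex III and 0 of 10 of complex IV held the NRF1 word. The ETS word stood in 5 of these 10 windows of complex IV. The window of COX8C, a complex IV gene that was not tested, held the NRF1 word. A match is a run of letters and not a measured binding site.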

How the data were processed

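Total RNA was isolated with Trizol and read on an Illumina HiSeq, and the authors deposited a table of FPKM by gene and library (20030 rows, 27 of them named by a date). The submitters' processing notes name Trimmomatic 0.36, HISAT2 2.0.5, Cufflinks 2.2.1 and HTSeq 0.9.1, and the study's methods name DESeq. The genome build and annotation are not given in the sources used here. Low values showed no common step between libraries, so read counts were not recovered and count tests were not used.

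Libraries were grouped by their labels. The members and lists were chosen with earlier results of these data known, and no list was tested as a set. The 10677 genes that reached 1 FPKM in 2 or more libraries were tested on log2(FPKM + 1) with limma 3.58.1 in R 4.3.3, in 1 fit of 8 libraries and 4 groups with a trend in the variance, and p-values were adjusted by Benjamini-Hochberg over all tested genes. Fold changes on this scale understate those of low genes. The siTEAD1/2/3/4 library was compared by size only. A check of the test on simulated data was made, but its outcome is not given here.

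For the correction, the deviation of every library from the 8-library mean on the log2 scale was fitted with natural splines (4 degrees of freedom) on GC content and log length of the GENCODE v44 canonical transcript (10617 genes, 99.4%) or of its coding sequence (10598), and the fit was subtracted. GC content and length accounted for 11.7 to 59.8% of the variance of these differences, with the highest value in siHHEX 3. Symbols ATP5MD, ATP5MPL and ATP5S were matched through RefSeq synonyms. Genes named are, per complex, the highest in siNC and those with the highest and lowest change, those called in siYAP/TAZ, the catalytic, isoform and rotor lists, the siRNA targets, and the extremes of each other list. Others were chosen after their values were seen. Some genes that enter the counts are not reported here. Alternatives were another pseudocount, no filter, only the groups compared, a replicate block, median scaling and leaving out each library. Figures used Python 3.11.15 and matplotlib 3.10.9.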

Additional observations from a re-analysis of the deposited data

How the results depend on the processing

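For siHHEX against siNC, 38 members were higher and 0 lower. With a pseudocount of 0.1, no filter, only the groups compared, the replicate block or median scaling, 29 to 41 were higher and 0 lower. The correction for GC content and length gave 14 higher and 1 lower, with the coding sequence 17 and 1, and together with the block 2 higher. Replicate number 3 occurs only in siHHEX, so in every fit with the block siHHEX 3 was taken up by its own block term. The siHHEX contrasts with the block therefore rest on siHHEX 1 and siHHEX 2. Of all tested genes, 3.55% were higher and 3.19% lower with the correction, and 5.22% and 4.83% with the coding sequence. Correction and block together left 0.622% higher and 0.970% lower. Leaving out 1 library gave at most 44 higher and at most 3 lower, the 3 lower without siHHEX 2, where 24.9% of all tested genes were lower. With a siHHEX or siYAP/TAZ library left out, 10.7 to 20.4% of all tested genes were higher and 9.08 to 24.9% lower. With either siNC library left out the calls of the members were lost, as were nearly all calls among all tested genes. With 1 siNC library left, its spread was taken from the other groups.

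For siYAP/TAZ against siNC, 2 were higher and 0 lower. The count was 1 higher with a pseudocount of 0.1 (5.83% of all tested genes) or median scaling (3.28%) and 0 with no filter (1.47%). It was 4 higher and 1 lower with only the groups compared, where 11.4% of all tested genes were higher and 5.05% lower. It was 1 higher and 1 lower with the correction, with or without the block, and 1 higher and 2 lower with the coding sequence. Of all tested genes, 5.29% were higher and 6.14% lower with the correction, and 4.56% and 4.61% with the block added. With the coding sequence they were 4.75% and 5.36%. Leaving out 1 library gave at most 2 higher and at most 1 lower. With a siHHEX library left out, 3.90 to 8.88% of all tested genes were higher and 1.63 to 3.46% lower.

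For siHHEX against siYAP/TAZ, 33 were higher and 6 lower. Lower members were 2 with only the groups compared, 1 with the block and 2 with median scaling, where 43 were higher. The correction gave 14 higher and 0 lower, with the block 2 and 0, and with the coding sequence 22 and 0. Of all tested genes, 5.52% were higher and 3.35% lower with the correction, and 0.923% and 0.998% with the block added. With the coding sequence they were 8.11% and 5.02%. Leaving out 1 library gave 13 to 39 higher and 0 to 9 lower. In siTEAD1/2/3/4, 4 higher and 2 lower became 0 lower with the correction, and 4 to 6 higher and 0 to 2 lower with 1 siNC library left out. As deposited, 17.8% of all tested genes were higher and 8.95% lower by this size, and the shares in the other settings are not given here.

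The siHHEX direction turned for 27 of the 81 with the transcript correction and for 20 with the coding sequence, of which 10 and 8 passed the test with one sign. Among the latter were COX7B (0.31 with the transcript correction), ATP5PB (0.37), ATP5F1D (-0.18, -0.20 with the block, -0.071 with the coding sequence), NDUFS7 (-0.031), COX6A1 (-0.0062, -0.019 with the block, -0.017 with the coding sequence), COX6B1 (-0.065, -0.040 with the block), COX8A (-0.014 with correction and block, -0.044 with the coding sequence), UQCR10 (-0.060 with the coding sequence) and UQCR11 (-0.12 with it). Members that passed with neither sign included NDUFA5 (0.17 with the transcript correction), NDUFS1 (0.08), UQCRB (0.37), UQCRC2 (0.17), UQCRFS1 (0.245), ATP5F1E (0.24), ATP5F1A (0.09) and COX6C (0.03). With the coding sequence NDUFA5 (-0.17), UQCRFS1 (-0.13), ATP5F1E (-0.27) and COX6C (-0.14) did not turn. NDUFS1 (0.08), UQCRB (0.11), UQCRC2 (0.26) and ATP5F1A (0.11) turned with it too. The cause was not tested. Same-numbered libraries did not deviate together (correlations -0.07 to 0.02), so the numbers were not taken as pairs.

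The depth of the libraries is unknown, 2 siNC libraries carry every comparison with siNC, and siRNAs of 1 group differ in sequence, so their spread includes differences between siRNAs.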
